A study of Macaca mulatta with 304 samples.

Results

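Whole blood drawn on Day 3 after irradiation of the thorax was compared with blood of the same rhesus macaque (Macaca mulatta) drawn 2 days before irradiation. The members were the Day 3 and control libraries of every animal that had both, paired by the animal's name in the sample titles. This gave 48 libraries of 24 animals, out of 304 libraries of 28 animals in the series. Of the 24 animals, 12 received 9.8 Gy and 12 received 10.7 Gy, and each dose group held 6 males and 6 females. The animals were adults of the Chinese sub-strain, between 3 and 5 years old at the start of the study, and were irradiated with photons from a linear accelerator through the front and the back of the chest. There was no sham-irradiated group, and the irradiated animals were also fasted, given the antiemetic ondansetron and anesthetized. The change on Day 3 therefore cannot be told apart from what these procedures or 2 blood draws do to blood. All animals were given the pain drugs tramadol or buprenorphine, started after the Day 3 draw. Dexamethasone was kept for animals with rapid breathing, for which the labels give no days.

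Ionizing radiation breaks DNA, and the transcription factor p53 then switches on genes that halt the cell cycle, repair DNA or start cell death. Among circulating cells, B lymphocytes die readily after irradiation, whereas monocytes and mature granulocytes are more resistant. Red cells and platelets have no nucleus but still carry RNA from the bone marrow, and young ones carry the most. C1q is the protein that recognizes targets in the classical complement pathway, and it is made mainly by macrophages and monocytes rather than by the liver.

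Total counts per control library ran from 6676757 to 14609879 (median 11697186) and per Day 3 library from 9595588 to 23283000 (median 12436548). Library names carried the number 0 for 4 animals, all given 10.7 Gy, and another number for 20, and control and Day 3 were of the same kind in all 24 animals. The 4 control libraries numbered 0 had at most 7153384 counts, fewer than the other 20. No 2 of the 48 libraries held the same counts. The first principal component of the 48 libraries held 19.0% of the variance and was higher on Day 3 than in the own control in 24 of 24 animals. On this component 2 control libraries lay within the range of the Day 3 libraries (-1.63 to 46.5), those of animals B1504 (32.9) and B1502 (1.45), and the median control was at -24.9. Markers of T cells, B cells, neutrophils, monocytes, platelets and red cells were all present, as blood should give.

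The 13751 genes that reached 3 counts in 80% or more of the 304 libraries were tested. Values are given as CPM, the counts relative to a library total scaled by its upper quartile. A log2 fold change of 1 is a doubling relative to the own control. A gene was called changed at an adjusted p of at most 0.05 in the quasi-likelihood test of edgeR, blocked by animal, and a fold change of at least 1.5. On Day 3, 948 genes rose (6.89% of those tested) and 635 fell (4.62%), 11.5% in all, while 7406 genes (53.9%) passed the adjusted p alone. The rise was at least 2-fold for 321 genes and at least 4-fold for 10, and the fall was at least 2-fold for 157 genes and at least 4-fold for 2. Over all genes tested, the log2 fold changes had a median of -0.06. This median and the shares of 6.89% rising and 4.62% falling are the background for the lists below. The split depended on scaling, with 1057 genes rising and 530 falling under TMM scaling and 1095 rising and 518 falling in DESeq2. Of all tested genes, 2.31% were higher in every one of the 24 animals and 1.53% were lower in every animal. In 3 genes (0.0218%) every Day 3 library lay above every control library, and no gene lay wholly below. In bulk blood, a change in the number of cells of a type and a change in the RNA of each cell cannot be told apart.

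The genes of the 3 chains of C1q had the largest rises of all tested genes. They lie side by side on the minus strand of chromosome 1 in the Mmul_10 assembly, C1QA at chr1:202139634-202142742, C1QC at chr1:202131138-202135635 and C1QB at chr1:202117786-202126077, and do not overlap. Because the neighbours moved together, the 250 bases before the annotated start of each gene (RefSeq annotation of Mmul_10, chr1:202142743-202142992 for C1QA, chr1:202135636-202135885 for C1QC and chr1:202126078-202126327 for C1QB) are shown on the minus strand. Capitals mark the longest run of bases that C1QA and C1QC share.
C1QA: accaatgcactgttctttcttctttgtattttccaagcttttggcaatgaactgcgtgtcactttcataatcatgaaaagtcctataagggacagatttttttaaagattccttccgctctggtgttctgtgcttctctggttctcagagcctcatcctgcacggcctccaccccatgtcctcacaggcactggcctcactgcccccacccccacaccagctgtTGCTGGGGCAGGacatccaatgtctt
C1QC: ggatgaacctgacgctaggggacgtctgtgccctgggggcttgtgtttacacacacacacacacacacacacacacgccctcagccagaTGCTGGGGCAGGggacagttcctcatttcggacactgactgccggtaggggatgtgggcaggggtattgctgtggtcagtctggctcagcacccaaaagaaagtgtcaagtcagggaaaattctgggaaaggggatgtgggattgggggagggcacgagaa
C1QB: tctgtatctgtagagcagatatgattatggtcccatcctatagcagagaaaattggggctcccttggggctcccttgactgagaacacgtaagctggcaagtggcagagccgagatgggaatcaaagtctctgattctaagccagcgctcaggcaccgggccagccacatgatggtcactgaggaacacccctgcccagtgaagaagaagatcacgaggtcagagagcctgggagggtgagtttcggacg
The shared run TGCTGGGGCAGG was 12 bases long and began 26 bases before the start of C1QA and 161 bases before that of C1QC. Searched on both strands, it was found before 14 of 21076 protein-coding genes (0.0664%), C1QA and C1QC included. The run was chosen because these windows share it, so its rarity is a description only. Its part in the rise was not tested. On the strand shown, the C1QB window shared no run longer than 7 bases with C1QA, and none longer than 8 with C1QC.

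C1QC ranged from 0.384 to 14.4 CPM in control libraries (median 2.46) and from 9.71 to 132 CPM on Day 3 (median 22.3). It rose in 24 of 24 animals, and 19 of the 24 Day 3 libraries lay above the highest control. Its log2 fold change was 3.26 ± 0.099 (SE, n = 24 animals), which is 9.57-fold (edgeR adjusted p = 7.21e-21). C1QA went from 0.476 to 19.9 CPM in controls (median 3.64) to 10.4 to 152 CPM on Day 3 (median 26.6), a log2 fold change of 3.15 ± 0.14. C1QB went from 1.03 to 24.5 CPM (median 3.86) to 14.5 to 176 CPM (median 30.9), a log2 fold change of 3.06 ± 0.12. Both rose in all 24 animals, and 18 and 14 of their Day 3 libraries exceeded every control. The change in single animals spanned 2.17 to 4.34 for C1QC on the log2 CPM scale, so the smallest was still above 4-fold.

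**Figure D1:**
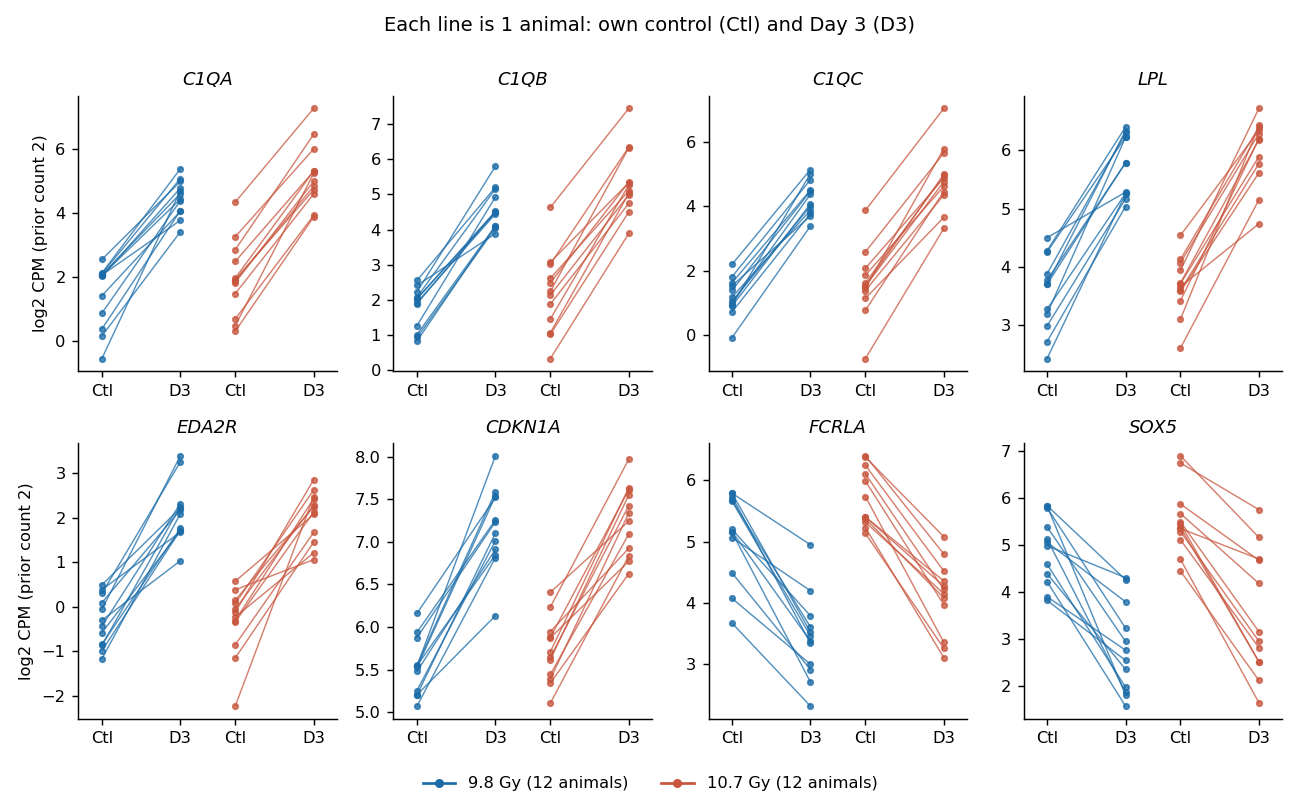
Values of 8 genes in each animal. The vertical axes give log2 CPM with a prior count of 2, each line joins the control (Ctl) and Day 3 (D3) library of 1 animal, and colors give the dose (12 animals each). All lines of C1QA, C1QB, C1QC, LPL, EDA2R and CDKN1A run upward, and those of FCRLA and SOX5 run downward, at both doses.

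Other complement genes rose less. Of 17 tested genes of the complement list, 8 rose and none fell, and the list's log2 fold changes had a median of 0.56. Besides C1q these were C2, the next protease of the classical pathway (log2 fold change 1.56 ± 0.15), the anaphylatoxin receptors C3AR1 (1.53 ± 0.10) and C5AR1 (0.93 ± 0.0996), and the alternative pathway proteins CFD (0.93 ± 0.085) and CFP (0.76 ± 0.064). C3, the central protein that all pathways cleave, had a log2 fold change of 0.41 ± 0.11, and CFB one of -0.37 ± 0.14, neither of which reached the threshold. The regulators that protect host cells, CD46 (0.19), CD55 (0.13), CD59 (-0.03) and CR1 (0.08), and the receptors ITGAM (0.56), ITGAX (0.46) and VSIG4 (0.15) were also short of it. C1R and C1S, the protease partners of C1q, were not in the set tested.

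Markers of monocytes and macrophages rose in the same libraries. Of 11 tested monocyte genes, 8 rose and none fell (median log2 fold change 1.01). KLF4, a transcription factor of monocyte differentiation, ranged from 11.8 to 56.3 CPM in controls (median 26.4) and from 52.1 to 217 CPM on Day 3 (median 88.7). It rose in 24 of 24 animals (log2 fold change 1.96 ± 0.076, edgeR adjusted p = 4.74e-18), with 23 Day 3 libraries above every control. MS4A7 had a log2 fold change of 1.51 ± 0.11, and CSF1R, the receptor for the growth factor of these cells, one of 1.2049 ± 0.075. The classical marker CD14 rose less (0.64 ± 0.093), and CCR2 (0.23), CD86 (0.24) and VCAN (0.23) did not pass the threshold. The summed CPM of the list ranged from 899.4 to 4582.6 in controls (median 1882.7) and from 1904.1 to 4440.0 on Day 3 (median 2909.6). The part of this shift in the rise of C1q was not tested.

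The list of tissue macrophage genes had 12 tested members, of which 8 rose (median log2 fold change 0.85). LPL, which splits triglycerides in lipoproteins, was 1 of the 3 genes with no overlap between days, at 5.16 to 23.1 CPM in controls and 26.5 to 105.4 CPM on Day 3. Its log2 fold change was 2.27 ± 0.11 (edgeR adjusted p = 1.76e-16). SELENOP, a selenium carrier, had a log2 fold change of 2.05 ± 0.13, GPNMB, a glycoprotein of lipid-laden macrophages, one of 1.9957 ± 0.17, and MRC1, the mannose receptor, one of 1.44 ± 0.18. The iron exporter SLC40A1 (0.94 ± 0.083), the hemoglobin scavenger receptor CD163 (0.79 ± 0.14) and the heme-degrading enzyme HMOX1 (0.72 ± 0.080) rose as well. TREM2 (0.29), AXL (0.27), NR1H3 (0.41) and ABCA1 (-0.08) did not pass the threshold. MARCO, APOC1 and FOLR2 were among the 6 list members outside the set tested.

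Lysosomal genes of phagocytes moved in 1 direction. All 22 tested members had a positive log2 fold change, and 11 passed the threshold (median 0.59). LGMN, an asparaginyl protease, had a log2 fold change of 1.37 ± 0.057, NPC2, which carries cholesterol out of lysosomes, one of 1.33 ± 0.068, CTSB, cathepsin B, one of 1.17 ± 0.059, and LIPA, lysosomal acid lipase, one of 1.09 ± 0.072. Each of these 4 rose in 24 of 24 animals. NPC2 lay at 19.1 to 45.01 CPM in controls (median 27.2) and at 41.9 to 145 CPM on Day 3 (median 71.6), with 23 Day 3 libraries above every control.

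**Figure D2:**
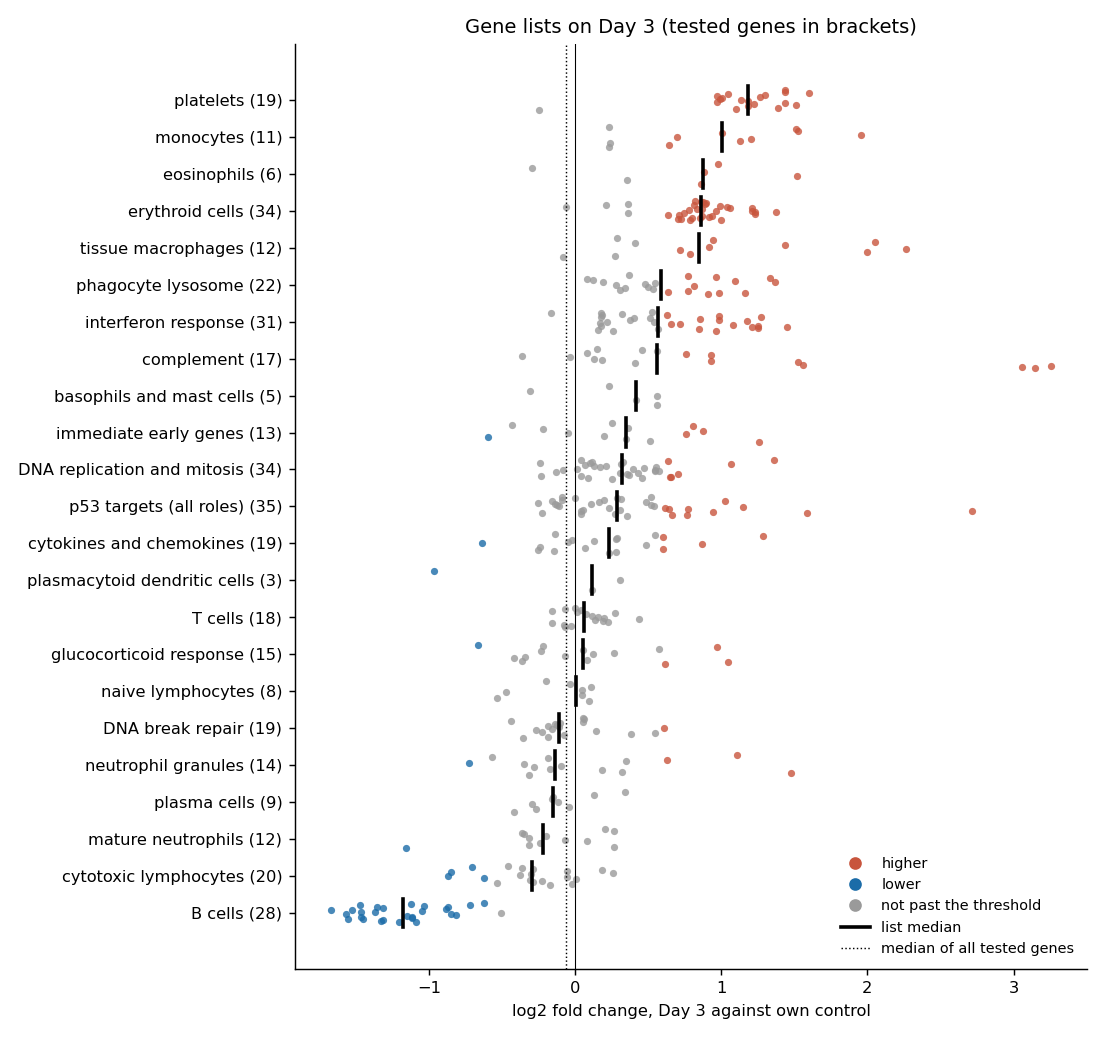
Log2 fold change on Day 3 against the own control for the tested genes of each list. Each point is 1 gene, red where it rose, blue where it fell and gray where it did not pass the threshold, thick bars are list medians and the dotted line is the median of all tested genes (-0.06). Among the lists of cell types the platelet list has the highest median (1.18) and the B cell list the lowest (-1.18), and the 3 C1q genes stand apart at the right of the complement list.

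Among p53 targets the rise was selective. Of 35 tested targets, 10 rose and none fell, with a median log2 fold change of 0.29. EDA2R, a death receptor of the TNF receptor family on the X chromosome, was another of the genes with no overlap. It lay at 0 to 1.28 CPM in controls (median 0.619) and at 1.83 to 10.3 CPM on Day 3 (median 4.23). The log2 fold change was 2.72 ± 0.18 (edgeR adjusted p = 4.30e-13), and it rose in 24 of 24 animals of both sexes. SASH1, a scaffold protein gene chosen here after its values were seen, was the remaining gene without overlap, at 2.54 to 16.1 CPM in controls and 18.7 to 51.2 CPM on Day 3.

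CDKN1A, the inhibitor of cyclin-dependent kinases that halts the cell cycle, ranged from 33.5 to 84.7 CPM in controls (median 46.6) and from 70.0 to 257 CPM on Day 3 (median 150.7). It rose in 24 of 24 animals (log2 fold change 1.59 ± 0.081, edgeR adjusted p = 1.10e-15), and 23 of its Day 3 libraries exceeded every control. Of the other arrest genes, GDF15, a secreted stress factor, had a log2 fold change of 0.77 ± 0.099 and GADD45A one of 0.64 ± 0.11. PLK2 (0.54), SESN2 (0.16), BTG2 (0.04), PLK3 (-0.11) and SESN1 (-0.26) did not pass the threshold, which left 3 of 8 arrest genes changed.

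In the group for cell death, 5 of 13 genes rose. Besides EDA2R these were PHLDA3, an inhibitor of AKT (1.15 ± 0.097), the death receptor TNFRSF10B (1.02 ± 0.096) and the mitochondrial death proteins BBC3 (0.77 ± 0.058) and BAX (0.66 ± 0.052). BAX lay at 20.3 to 39.9 CPM in controls (median 29.0) and 36.5 to 67.3 CPM on Day 3 (median 44.4), and 21 of 24 Day 3 libraries were above every control although the change was small. FAS had a log2 fold change of 0.04 ± 0.069, TNFRSF10A one of -0.16 and TP53I3 one of -0.09. AEN (0.35), TP53INP1 (0.31) and PMAIP1 (0.52) were higher at the adjusted p but under 1.5-fold, as was TRIAP1 (0.29).

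The repair group gave 2 of 5. DDB2, which recognizes damaged bases, ranged from 2.59 to 6.201 CPM in controls and 4.35 to 14.0 CPM on Day 3, a log2 fold change of 0.95 ± 0.091. PCNA, the sliding clamp of DNA polymerases, had one of 0.61 ± 0.067, which was 0.56 in animals with numbered libraries and again at 9.8 Gy alone, under the threshold both times. XPC (-0.09), RRM2B (-0.14) and POLH (-0.13) did not pass. In the last group, of feedback and other genes, none of 9 passed. MDM2, the ligase that degrades p53 and is itself a p53 target, had a log2 fold change of 0.23 ± 0.082, and ZMAT3 one of 0.52 ± 0.059. FDXR (0.31 ± 0.079), TIGAR (0.48), CCNG1 (0.27) and PPM1D (0.11) were also higher at the adjusted p but under 1.5-fold, and FBXO22 (0.06), TRIM22 (0.00) and CYFIP2 (-0.23) showed smaller values.

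A p53 half-site was searched on both strands in the 250 bases before each gene. It was found before 2 of the 36 listed p53 targets (5.56%), PPM1D and TP53INP1, and before 5.11% of 21076 protein-coding genes. Bases farther upstream and within the genes were not searched. The shares therefore cannot show whether the listed targets have p53 sites. The part of the higher monocyte markers in the rise of p53 targets was not tested. The summed level of the T cell list in the same libraries was 1706.4 to 4038.8 CPM in controls (median 3045.9) and 1934.5 to 4815.8 CPM on Day 3 (median 2868.2).

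B cell genes fell together. Of 28 tested B cell genes, 27 fell and none rose, against a background of 4.62%, and the list's median log2 fold change was -1.18. FCRLA, an intracellular Fc receptor-like protein of B cells, lay at 12.5 to 84.1 CPM in controls (median 42.1) and 4.78 to 33.6 CPM on Day 3 (median 12.8). It fell in 24 of 24 animals (log2 fold change -1.67 ± 0.099, edgeR adjusted p = 3.09e-14), and 12 Day 3 libraries lay below every control. The ranges of both days overlapped, and animals differed widely before irradiation.

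By role, the B cell transcription factors EBF1 (-1.57 ± 0.12), PAX5 (-1.35 ± 0.14) and POU2AF1 (-0.87 ± 0.093) fell, as did the receptor chains CD79A (-1.11 ± 0.11) and CD79B (-1.15 ± 0.11). The signaling proteins BLK (-1.33), BLNK (-1.32), BANK1 (-1.2022) and STAP1 (-0.72) fell too. Of the surface proteins, FCRL5 (-1.52), FCRL2 (-1.46), CD72 (-1.46), CD22 (-1.45), FCRL1 (-1.37), MS4A1, which encodes CD20 (-1.32), CD40 (-1.11), FCRL3 (-1.05) and CR2 (-0.81) fell. The survival receptors TNFRSF13B (-1.47) and TNFRSF13C (-1.13), the chemokine receptor CXCR5 (-0.85) and AFF3, RALGPS2 and HVCN1 (-1.09, -1.04 and -0.88) complete the group with VPREB3 (-0.63). The exception was FCER2, the low-affinity IgE receptor, at -0.50 ± 0.15. VPREB3 did not pass the threshold at 9.8 Gy alone (-0.22). The median over the list was negative in 24 of 24 animals, from -2.17 in B1003 to -0.26 in B1501, both given 9.8 Gy. Summed over the list, the level was 730.1 to 4575.9 CPM in controls (median 2564.1) and 480.4 to 2226.7 CPM on Day 3 (median 971.0).

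Lists of other lymphocytes had fewer falls. None of 18 tested T cell genes was called (median log2 fold change 0.06), among them CD3E (0.19), CD8A (0.08) and CD4 (0.44 ± 0.060). None of 9 plasma cell genes was called either (median -0.15), and JCHAIN, which joins antibody polymers, was at -0.04. In the list of naive lymphocyte genes 0 of 8 were called (median 0.00), although BACH2 (-0.54 ± 0.084) and IL7R (-0.47 ± 0.068) were lower at the adjusted p. Of 20 cytotoxic lymphocyte genes, 4 fell and none rose (median -0.30), namely KLRB1 (-0.87 ± 0.16), the natural killer receptor NCR1 (-0.85 ± 0.10), SH2D1B (-0.70 ± 0.11) and GZMK (-0.62 ± 0.14). The cytotoxic effectors GNLY (-0.23), GZMB (0.01) and PRF1 (-0.29) did not pass the threshold. Of 3 tested genes from the plasmacytoid dendritic cell list, TCF4, a transcription factor that B cells also express, fell (-0.97 ± 0.089), and LILRA4 (0.31) and IL3RA (0.11) did not. CLEC4C, the defining marker of that cell, was outside the set tested.

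**Figure D3:**
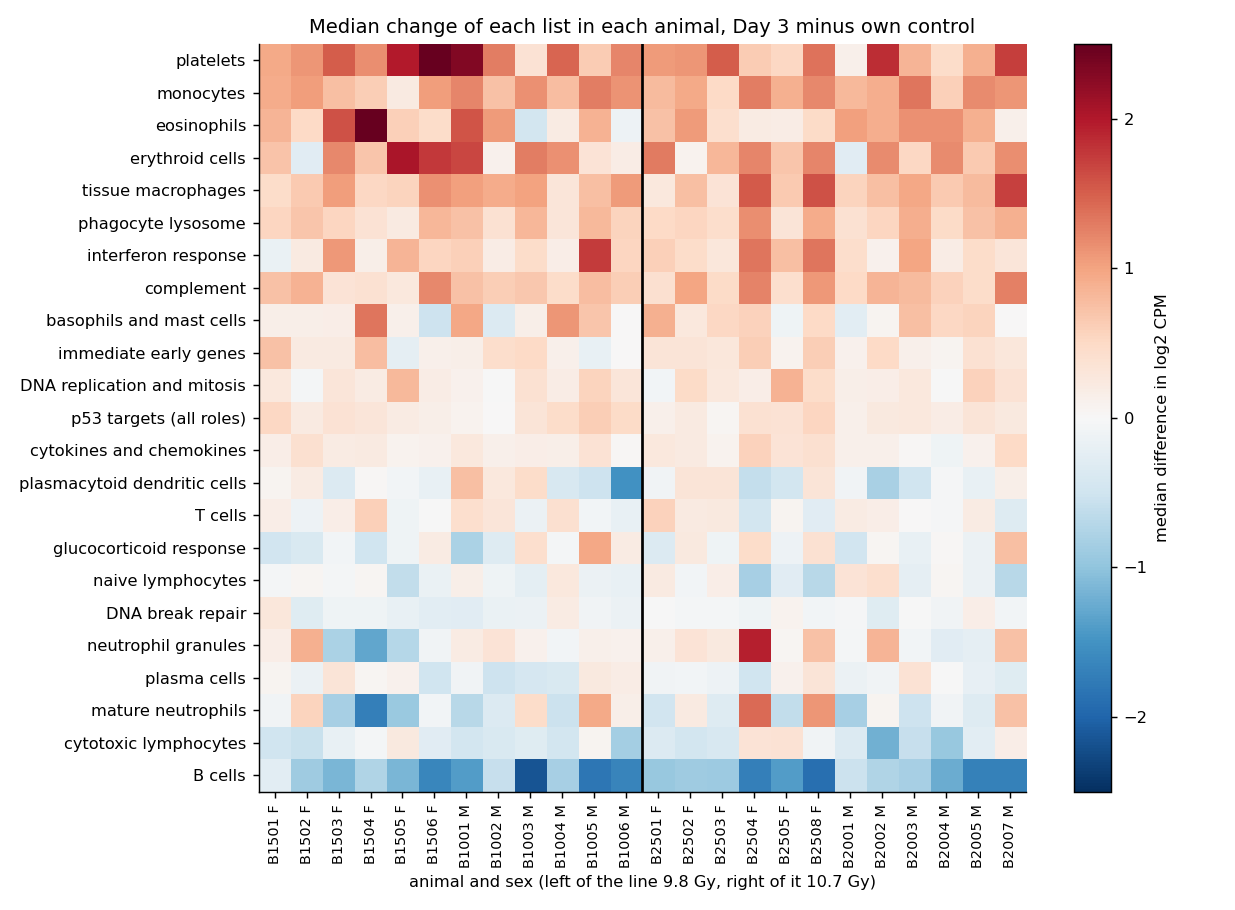
Median difference in log2 CPM, Day 3 minus own control, over the tested genes of each list (rows) in each of the 24 animals (columns, with sex as F or M; 9.8 Gy left of the line, 10.7 Gy right of it). Red is higher and blue is lower. The B cell row is blue and the platelet, monocyte and complement rows are red in every animal, while the neutrophil rows change sign between animals.

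Platelet genes rose most as a group. Of 19 tested genes, 18 rose (median log2 fold change 1.18), and the exception was ALOX12, a lipoxygenase, at -0.24 ± 0.073. GP1BB, a chain of the receptor for von Willebrand factor, went from 11.8 to 146 CPM in controls (median 48.6) to 60.3 to 350 CPM on Day 3 (median 117.6). It rose in 24 of 24 animals (log2 fold change 1.44 ± 0.13, edgeR adjusted p = 4.82e-10), with wide overlap between days, since 6 Day 3 libraries exceeded the highest control. TMEM40 (1.60 ± 0.12), GNG11 (1.51 ± 0.15) and TREML1 (1.44 ± 0.13) had similar log2 fold changes, and ITGA2B, the fibrinogen receptor chain, one of 1.14 ± 0.16. The list's median was positive in all 24 animals but ranged from 0.13 in B2001 to 2.54 in B1506. MYL9, a myosin light chain of platelets and smooth muscle that was not in the list, behaved likewise (1.76 ± 0.14, 24 of 24 animals).

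Of 34 tested erythroid genes, 30 rose and none fell (median log2 fold change 0.86). GATA1, the transcription factor that red cell and platelet precursors share, went from 5.18 to 19.6 CPM (median 9.02) to 10.6 to 55.5 CPM (median 24.1) and rose in 24 of 24 animals (1.23 ± 0.097, edgeR adjusted p = 1.54e-11). KLF1, the erythroid transcription factor, had a log2 fold change of 1.06 ± 0.14, RHAG, an ammonium channel of the red cell membrane, one of 1.21 ± 0.14, and ALAS2, the entry enzyme of heme synthesis, one of 0.79 ± 0.14. HBB was called (1.37 ± 0.28) in spite of a wide spread, 3.64 to 327 CPM in controls and 15.9 to 1592 CPM on Day 3. In the 4 animals with libraries numbered 0 alone, HBB was not called. The list's median was positive in 22 of 24 animals, with B2001 (-0.29) and B1502 (-0.28) below 0.

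Granulocyte genes were split. Of 12 genes of mature neutrophils 1 fell (8.33%, against 4.62% of all tested genes) and none rose. It was ALPL, the alkaline phosphatase of neutrophils (-1.16 ± 0.13). The list's median was -0.22 over genes, but by animal it ran from -1.71 in B1504 to 1.42 in B2504, and 9 of 24 animals were above 0. B1504 is the animal with the highest control library on the first principal component. Of 14 granule genes, AZU1 (1.48 ± 0.12), RETN (1.11 ± 0.16) and MPO (0.63 ± 0.17) rose, and MMP8, the neutrophil collagenase of late precursors, fell (-0.73 ± 0.26). In the 4 animals with libraries numbered 0, MMP8 had a value of 0.096 (edgeR adjusted p = 0.929). AZU1 lay at 0.384 to 7.77 CPM in controls and 2.003 to 25.0 CPM on Day 3 and was higher in all 24 animals. AZU1 and MPO belong to the primary granules that form in early precursors. ELANE, PRTN3 and CTSG of the same granules were not in the set tested.

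Of 6 tested eosinophil genes, 4 rose (median log2 fold change 0.87). EPX, the peroxidase of eosinophil granules, had a log2 fold change of 1.52 ± 0.23 with a median of 2.07 CPM in controls and 8.27 CPM on Day 3, SMPD3 one of 0.98 ± 0.12, IL5RA, the interleukin-5 receptor chain, one of 0.88 ± 0.16 and ALOX15 one of 0.86 ± 0.11. CCR3, the eotaxin receptor (0.35), and PRSS33 (-0.30) did not pass the threshold. In the list of basophil and mast cell genes 0 of 5 were called, and GATA2 and CPA3 came close at 0.56 each. TMM scaling and DESeq2 called 2 of these 5 higher.

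Interferon response genes were higher on average. Of 31 tested genes, 15 rose and none fell (median log2 fold change 0.56). IFI44L rose in 23 of 24 animals (1.45 ± 0.25), from 1.10 to 21.6 CPM (median 2.08) to 1.80 to 54.3 CPM (median 6.41), so the ranges overlapped. OASL, a relative of the antiviral oligoadenylate synthetases, had a log2 fold change of 1.27 ± 0.16, IFI6 one of 1.25 ± 0.18, IFI27 one of 1.25 ± 0.26, and MX1, an antiviral GTPase, one of 0.99 ± 0.12. The transcription factors STAT2 (0.17) and IRF9 (0.22) and the sensor IFIH1 (0.18) did not pass the threshold. Animals differed, with a list median of -0.17 in B1501 and 1.75 in B1005. APOBEC3A, an interferon-inducible cytidine deaminase of monocytes, had the fifth largest rise of all tested genes, from 0.144 to 20.6 CPM (median 3.67) to 1.35 to 95.9 CPM (median 23.5), with a log2 fold change of 2.51 ± 0.20 and 24 of 24 animals higher. It has close relatives in the same gene cluster, so reads that match several copies could make its level uncertain.

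Of 19 tested cytokines and chemokines, 4 rose (21.1%) and 1 fell (5.26%), against 6.89% and 4.62% of all tested genes. TNFSF13, which encodes the B cell survival factor APRIL, went from 25.8 to 75.8 CPM (median 44.3) to 63.998 to 237.7 CPM (median 96.3), a log2 fold change of 1.29 ± 0.073 (edgeR adjusted p = 1.34e-14). IL1RN, the antagonist of interleukin 1, had a log2 fold change of 0.87 ± 0.12, TNFSF10, which encodes the death ligand TRAIL, one of 0.60 ± 0.070 and IL15 one of 0.60 ± 0.13. IL6 fell (-0.63 ± 0.22, lower in 16 of 24 animals) at a median of 1.002 CPM in controls. IL1B (0.49), TNF (0.29) and CXCL8 (-0.14) did not pass the threshold. Leaving out 1 animal could end the calls of IL6, IL15 and TNFSF10. Of these 5 calls, 3 were left without the animal block and 2 in animals with numbered libraries.

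Of 13 immediate early genes, which respond to stimulation within minutes, 4 rose and 1 fell (median log2 fold change 0.35). ATF3, a stress-induced transcription factor, had a log2 fold change of 1.26 ± 0.088 and FOSB one of 0.76 ± 0.066, both in 24 of 24 animals. IER3 (0.88) and NR4A1 (0.81) rose, EGR3 fell (-0.60 ± 0.14), and FOS (0.20) and JUN (-0.22) did not pass the threshold. Of 15 genes that respond to glucocorticoids, 3 rose and 1 fell. The 3 were CISH (1.05 ± 0.064), a feedback inhibitor of cytokine receptors, THBD (0.97 ± 0.11), the thrombomodulin of monocytes and endothelium, and ADORA3 (0.61 ± 0.14), while ZBTB16 fell (-0.66 ± 0.12). FKBP5 (-0.34), PER1 (-0.23) and TSC22D3 (-0.22) of the same list did not pass the threshold. The part of steroids in these changes was not tested. At 10.7 Gy alone 2 of the 15 were called.

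DNA replication and mitosis genes gave 6 rises among 34 tested genes and no fall (median log2 fold change 0.32). TYMS, thymidylate synthase, had a log2 fold change of 1.36 ± 0.12 and was higher in 24 of 24 animals, at 1.96 to 9.36 CPM in controls and 5.04 to 24.7 CPM on Day 3. PBK (1.06 ± 0.22), CDC6 (0.70 ± 0.12), BUB1 (0.66), BUB1B (0.65) and TOP2A (0.63) also rose, whereas MKI67 (0.32), CCNB1 (0.04) and PLK1 (-0.24) did not pass the threshold. DESeq2 called 10 of the 34. In the list of DNA break repair genes 1 of 19 rose (5.26%), no more than the 6.89% of all tested genes. This was NBN, a part of the complex that senses breaks (0.61 ± 0.15). NBN was not called without the block, in animals with numbered libraries or without 1 of 4 animals (B1004, B1005, B2504 or B2508). TP53BP1, which binds chromatin around breaks, was lower in 24 of 24 animals, but by less than 1.5-fold (-0.44 ± 0.048), and ATM was at -0.36 ± 0.061.

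Other genes with large rises were EPHA2, a receptor tyrosine kinase, SDC3, a cell-surface proteoglycan, DES, the muscle intermediate filament desmin, and VMO1. EPHA2 went from 0.0835 to 2.60 CPM (median 0.887) to 0.735 to 11.7 CPM (median 4.17), a log2 fold change of 2.23 ± 0.15, and rose in 24 of 24 animals. SDC3 went from 1.02 to 5.92 CPM to 4.90 to 32.1 CPM (2.06 ± 0.11), and 22 of its Day 3 libraries exceeded every control. DES (2.0023 ± 0.13) rose in 23 animals and VMO1 (1.98 ± 0.096) in 24.

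Among genes with a symbol, the largest falls were mostly outside the lists. SOX5, a transcription factor, went from 14.0 to 119.3 CPM in controls (median 39.9) to 2.78 to 53.9 CPM on Day 3 (median 7.20). It fell in 24 of 24 animals (log2 fold change -2.04 ± 0.17, edgeR adjusted p = 2.99e-11), and 17 Day 3 libraries were below every control. CCDC141 had a log2 fold change of -1.84 ± 0.17, DENND2A one of -1.82 ± 0.12, WNT7B, a secreted Wnt ligand, one of -1.80 ± 0.17, and DMD, which encodes dystrophin, one of -1.75 ± 0.15. Next came UBE2Q2L (-1.69), FGFR1, a receptor for fibroblast growth factors (-1.67), FCRLA, CCDC187 (-1.65), IGSF10 (-1.65), PLPP3, a lipid phosphatase (-1.63), and ELFN2 (-1.58). SLC28A3, a nucleoside transporter, was lower by a similar amount (-1.63 ± 0.23) in 21 animals. DENND2A lay at 3.94 to 47.6 CPM in controls and 1.15 to 16.4 CPM on Day 3, and 9 Day 3 libraries were below every control. Whether these genes come from the same cells as the B cell list was not tested.

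The study's models to predict dose, survival and pleural effusion picked out genes for Day 3 on these samples, so the direction of these genes is not independent evidence. None of the Day 3 models reached significance in the study. Of the genes picked for Day 3, 40 were listed here, leaving out a LOC number and a name that matches no gene in the count table. Of the 39 tested, 32 rose and 2 fell, BLNK (-1.32 ± 0.079) and TEX53 (-0.82 ± 0.17). Members not yet named include the membrane receptors CD300H (1.89 ± 0.098), HTR7, a serotonin receptor (1.86 ± 0.11), and SUCNR1, the receptor for succinate (1.71 ± 0.18). NDRG2 (1.54 ± 0.063), GUCY1B1, a chain of the nitric oxide receptor (1.48 ± 0.069), TIMP1, an inhibitor of matrix proteases (1.45 ± 0.080), the G protein GNA15 (1.41 ± 0.066) and PLLP (1.41 ± 0.13) rose by similar amounts. PAQR7 (1.36 ± 0.088), TST (1.06 ± 0.096), the macrophage glycoprotein CD68 (0.99 ± 0.058), ASAH1 (0.91 ± 0.070), AP2S1 (0.69 ± 0.052) and SYNGR4 (1.62 ± 0.13) rose as well, and CALD1 had the smallest rise that passed (0.63 ± 0.13). RYR1 (-0.53), NR2C2 (-0.37 ± 0.036), SLC9A3R2 (0.30), WDR44 (0.06) and SLC35E1 (0.00) did not pass the threshold. NR2C2, a nuclear receptor, nevertheless was lower in 24 of 24 animals, and 21 of its Day 3 libraries lay below every control.

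The doses were compared through the difference of the Day 3 change, 10.7 Gy minus 9.8 Gy, over 12 animals each. At an adjusted p of 0.05, 0 of 13751 genes differed in edgeR (background 0%), 689 had an unadjusted p under 0.05, and the smallest adjusted p was 0.657. DESeq2 called 1 gene, LCA5, a cilium gene. All 1583 changed genes moved in the same direction at both doses, which the pooled call favors. The median log2 fold change of the genes that rose was 0.88 at each dose, and that of the genes that fell was -0.78 at 9.8 Gy and -0.81 at 10.7 Gy.

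For C1QC, CDKN1A, FCRLA and EDA2R the interval of the difference between doses included 0. C1QC rose by 3.19 ± 0.14 at 9.8 Gy and by 3.32 ± 0.14 at 10.7 Gy, a difference of 0.13 (95% interval -0.28 to 0.55). CDKN1A rose by 1.64 ± 0.12 and 1.54 ± 0.12 (difference -0.10, interval -0.43 to 0.23), and FCRLA had log2 fold changes of -1.71 ± 0.14 and -1.63 ± 0.14 (difference 0.079, interval -0.33 to 0.49). EDA2R had the widest interval of these, -0.99 to 0.60 around -0.19. LCA5 had a log2 fold change of 0.88 ± 0.11 at 9.8 Gy and 0.093 ± 0.12 at 10.7 Gy (difference -0.78, interval -1.12 to -0.44, edgeR adjusted p = 0.657). Among the changed genes named here, the unadjusted interval left out 0 for CALD1, CD68, FOSB, GP1BB, MMP8, MPO and MYL9, and none of them passed the adjusted test. Of all 13751 tested genes, 689 had an unadjusted p under 0.05 in edgeR, so these names are a description only. ZFYVE28 (difference 1.03) and DNLZ (-0.53) had the next smallest p, with an adjusted p of 0.862 each.

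**Figure D4:**
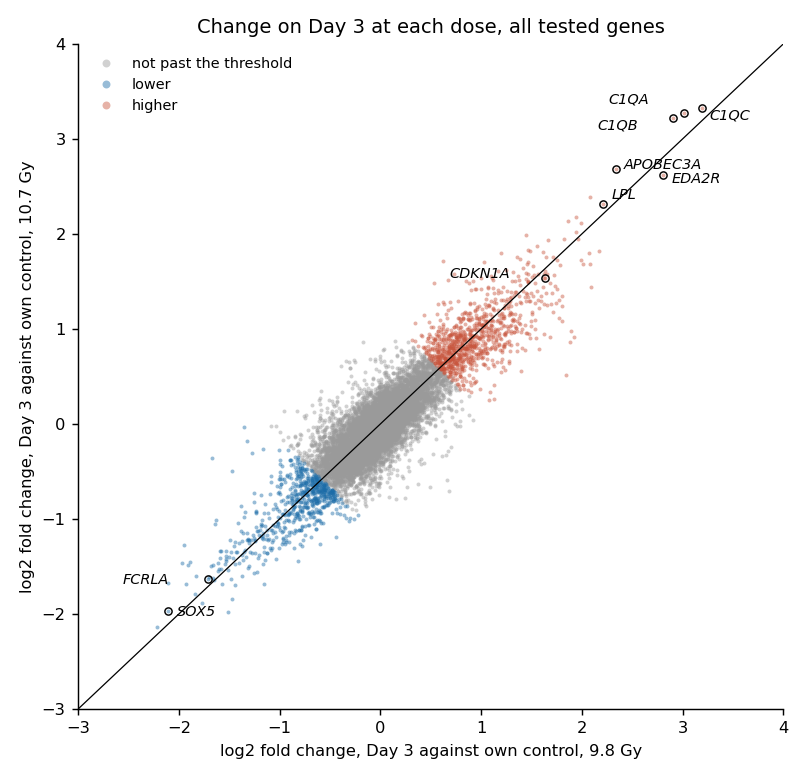
Log2 fold change on Day 3 against the own control at 9.8 Gy (horizontal) and 10.7 Gy (vertical), 12 animals each. Each point is 1 of 13751 tested genes, colored by the call over both doses, and the line marks equal change. C1QA, C1QB, C1QC, EDA2R and APOBEC3A lie farthest to the upper right, and no gene passed the test of the dose difference in edgeR.

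Males and females, 12 of each, were compared in the same way. No gene differed between the sexes at an adjusted p of 0.05 in edgeR or in DESeq2, 346 had an unadjusted p under 0.05 in edgeR, and the smallest adjusted p was 1. The smallest p values belonged to the chemokine CCL5 (difference male minus female -0.67), FADS3 (-0.65) and FSCN1 (-0.69).

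To see whether the Day 3 levels lasted, the Day 6 and Day 9 libraries of the same 24 animals were compared with their Day 3 libraries. Both comparisons share the Day 3 libraries with the one against control. Tramadol or buprenorphine was started between the Day 3 and Day 6 draws. The differences from Day 3 therefore cannot be told apart from what these drugs or further blood draws do to blood. On Day 6, 328 genes (2.39%) differed from Day 3, with 0.836% of the tested genes higher and 1.55% lower. On Day 9, 1834 genes differed (13.3%), of which 1037 were higher (7.54%) and 797 lower (5.8%). The shares on each day are the background for the list counts below. The split on Day 9 depended on scaling, with 648 higher and 1073 lower under TMM scaling and 760 higher and 994 lower in DESeq2. The 4 libraries numbered 0 had at most 5665059 counts on Day 6 and 4947025 on Day 9, and the other 20 at least 10171483 and 9308602. In the 20 animals with numbered libraries alone, 256 genes differed on Day 6 and 1245 on Day 9.

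C1q genes were among those with the largest falls after Day 3. C1QA had a log2 difference of -1.63 on Day 6 and -2.56 on Day 9 relative to Day 3, C1QC one of -1.62 and -2.4971, and C1QB one of -1.29 and -2.23, all lower in 24 of 24 animals at both times. The median of C1QC was 2.46 CPM in controls, 22.3 on Day 3, 7.62 on Day 6 and 3.53 on Day 9. Of the 17 complement genes, C1q included, 11 were lower on Day 9 than on Day 3 and none was higher. CDKN1A fell by 1.15 on Day 6 and by 1.67 on Day 9 on the log2 scale, and its median of 44.6 CPM on Day 9 was next to the control median of 46.6 CPM. EDA2R had differences of -0.76 and -1.04 and a median of 1.81 CPM on Day 9, against 0.619 CPM in controls. In all, 4 p53 targets were lower on Day 6 than on Day 3 and 7 on Day 9.

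**Figure D5:**
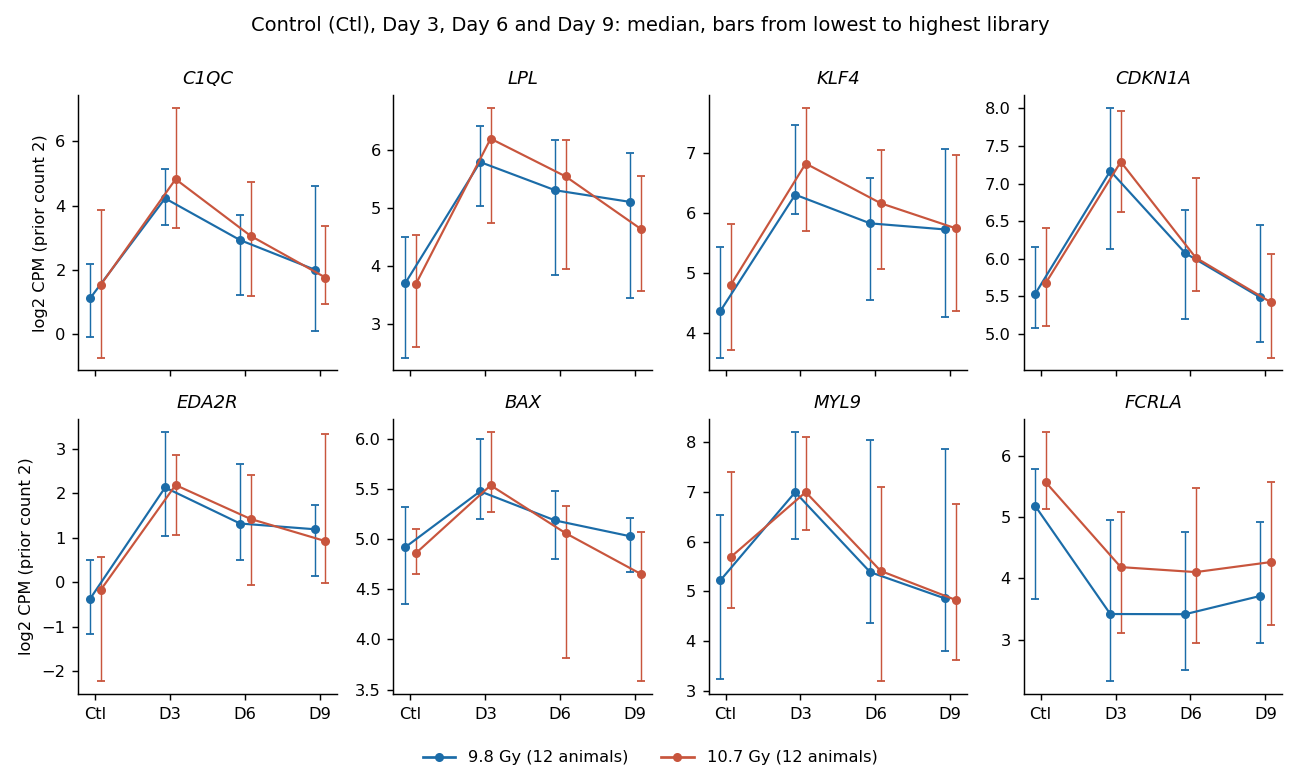
Levels of 8 genes in controls (Ctl) and on Day 3, Day 6 and Day 9 (D3, D6, D9) in the same 24 animals. Points are medians of 12 animals per dose on a log2 CPM axis (prior count 2), and bars run from the lowest to the highest library. C1QC, LPL, KLF4, CDKN1A, EDA2R, BAX and MYL9 have their highest median on Day 3 at both doses, whereas FCRLA stays near its Day 3 level.

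B cell genes did not recover by Day 6. None of the 28 was called on Day 6 against Day 3 (median log2 difference 0.00), and 7 were higher on Day 9 (median 0.36), with EBF1 at 0.88 and MS4A1 at 0.68. FCRLA (0.23) was not called on Day 9. The summed level of the list had a median of 2564.1 CPM in controls, 971.0 on Day 3, 1042.5 on Day 6 and 1209.0 on Day 9. Platelet genes turned the other way, with 14 of 19 lower on Day 6 (median -0.73) and 17 lower on Day 9 (median -1.52). MYL9 had log2 differences of -1.56 and -2.21. Of 34 erythroid genes, 6 exceeded their Day 3 level on Day 6 (median 0.46), when 0.836% of all tested genes did. On Day 9, 2 of 34 did (median 0.19), no more than the 7.54% of all tested genes.

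Monocyte genes were lower on Day 6 for 2 of 11 and on Day 9 for 6, and macrophage genes for 3 and 8 of 12. Of the 22 lysosomal genes none was called on Day 6 and 13 were lower on Day 9. Of the interferon response genes, 0 of 31 were called on Day 6 (median 0.02) and 2 lower and 1 higher on Day 9 (median 0.07). On Day 9, 5.8% of all tested genes were lower and 7.54% higher. Of the mature neutrophil genes 6 of 12 were higher on Day 6 (median 0.63), among them S100A12 (1.34) and S100A8 (0.92), and 4 of 14 granule genes were higher. The largest increases on Day 6 over Day 3 were in SLC28A3 (2.43), ENTPD3 (1.35), TNFAIP6 (1.27), CLTCL1 (1.24) and GCA (1.1996). SLC28A3, which had fallen on Day 3, thus exceeded its Day 3 level, and remained higher on Day 9 (1.54). SYNGR4 (-1.52) was among the 5 largest falls on Day 6 and DLK1 (-2.07) among those on Day 9. POU1F1 (1.36), TMEM272 (1.23), ZNF860 (1.1977) and KLRF2 (1.1985) were the other genes named on Day 9, and POU1F1, KLRF2 and TMEM272 had Day 3 medians under 2 CPM.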

How the data were processed

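Counting was done by the authors. Per the labels, CutAdapt 2.10, STAR 2.7.6a, Subread 2.0.1 and the Mmul_10 assembly were used. The study's methods describe removal of ribosomal RNA, stranded total RNA libraries and paired reads. They do not say whether globin RNA was removed as well, so the globin values may not reflect levels in blood. Whether strand was used in counting is not given in the sources used here, so antisense partners may share reads. The deposited counts, not normalized, cover 21070 genes. The deposited log2 values, scaled by the authors with the upper quartile, cover 16730 genes and served as an alternative.

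Groups came from the sample titles. Counts were tested with edgeR 4.0.16 (R 4.3.3; glmQLFit, upper quartile scaling, animal block, Benjamini-Hochberg adjustment) on the genes that reached 3 counts in 80% or more of all 304 libraries. Standard errors were derived from each fold change and F value, and intervals for dose differences use 22 residual degrees of freedom. The p-values set the mean change within animals against how much that change varied from animal to animal. Same-animal libraries deviated together in all 24 pairs (correlation at least 0.339). Log2 CPM used a prior count of 2. Dose and sex differences were interaction terms with no limit on fold. Named were, per list, the 4 largest changes moving one way in at least 90% of animals, every member of the p53, B cell and complement lists, the study's Day 3 genes, the 12 largest rises and falls, the 5 largest for Day 6 and Day 9, and the 3 smallest p for dose and sex. Genes with LOC names were passed over. Motifs were searched before the gene start only, not also after it as first planned. Other list members are given as examples. Some genes that the rule names are not reported here. Members and lists were chosen with earlier results of these data known, and lists are described by counts and medians without a test of the set. The scripts were first tested on simulated counts holding 200 changed genes. The alternatives were TMM scaling, DESeq2 1.42.0, limma 3.58.1 on the log2 values, no block, other filters, library kinds, single doses and leaving out each animal. Values, sequences and plots were made with Python 3.11.15, pandas 2.3.3, NumPy 2.4.6, SciPy 1.17.1 and Matplotlib 3.10.9.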

Additional observations from a re-analysis of the deposited data

How the results depend on the processing

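The number of genes changed on Day 3 (1583) stayed within 1.5 times under every alternative, although its split into rises and falls moved with scaling. It was 1587 with TMM scaling, 1613 in DESeq2, 1457 with limma on the deposited log2 values, 2098 with no filter on low counts and 1954 with the filter applied to the 48 libraries. It was 1508 in the 20 animals with numbered libraries, 1559 in the 4 with number 0, 1540 at 9.8 Gy and 1698 at 10.7 Gy. Leaving out 1 animal gave 1510 to 1667, and 1642 without B1504. Without the replicate block it was 1535, and no other call of a main count changed. Of 209 changed genes that were named or in a list, 4 lost the call with TMM scaling, 3 in DESeq2, 9 without the replicate block, 6 with limma on the log2 values, 9 in animals with numbered libraries, 18 at 9.8 Gy alone and 9 at 10.7 Gy alone. In the 4 animals with number 0, 35 lost it and MMP8 changed sign (0.096). Without the block these included EGR3, EPX, IL6, MPO, NBN, POU1F1, TNFSF10 and VPREB3. Leaving out 1 animal ended the call of 16 genes in at least 1 fit, with 0 to 9 lost per animal left out. They were ADORA3, BUB1, CALD1, EGR3, ERMAP, GZMK, IFIT2, IL15, IL6, MPO, NBN, POU1F1, SIGLEC1, TNFSF10, TOP2A and VPREB3. The most were lost without B1005 (9) and B2508 (8). The dose difference gave 0 genes under each alternative except DESeq2, which called 1 (LCA5, difference -0.76, adjusted p = 0.0219), and the sex difference gave 0 under each. Day 6 against Day 3 gave 256 to 350 genes and Day 9 against Day 3 gave 1245 to 1817. At this depth, 1485 further genes passed the filter on the 48 libraries alone.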

Other observations

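Some genes had too few counts for the main filter but reached 3 counts in at least 24 of the 48 libraries. A gene that is near 0 in one group passes this filter only through the group where it is high, so the values below are a description. The genes were picked after their values were seen unless a list held them. APOE, a lipid carrier made by macrophages, had 0 to 7 counts per control library (median 1.0) and 1 to 54 on Day 3, a log2 fold change of 2.66 ± 0.34. The scavenger receptor MSR1 (1.88 ± 0.28), the chemokine CXCL10 (2.02 ± 0.26) and SERPING1, the inhibitor of C1 proteases (1.15 ± 0.27), were also higher, and the B cell gene FCRL4 was lower (-1.93 ± 0.28). CD5L, a secreted protein of macrophages, went from a median of 1.5 to 29.5 counts (3.46 ± 0.26), and SPIC, a transcription factor of iron-recycling macrophages, from 2.0 to 15.0 (2.42 ± 0.28). CD5L was at 0 in 8 of the 24 control libraries and in none on Day 3. TIMD4, a receptor for dying cells, had a log2 fold change of -0.01 ± 0.35. Of the 1485 genes that only this filter admitted, 12.2% were called higher and 13.3% lower.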
